A study of Mus musculus with 6 samples.

Results

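Motile cilia are beating cell projections built on an axoneme, a ring of doublet microtubules around a central pair, with dynein arms as motors and radial spokes and the nexin-dynein regulatory complex as the parts that coordinate them. Many genes for these parts are activated by the forkhead factor FOXJ1 and by RFX factors, which bind a promoter element called the X-box, while the geminin-related proteins MCIDAS and GMNC and the cyclin-like CCNO act in cells that form many cilia. The data described here are the expression values of 53 mouse genes of this kind, 6 regulators and 47 genes for axonemal or cilium assembly proteins. The list was made by symbol, and members were then selected on their read counts: a gene was kept if it had 10 or more counts in at least 3 of the 6 libraries. All 53 symbols were found among the 56748 gene identifiers of the count table, 38 were kept and 15 were not. Of the 38, 37 were abundant enough for edgeR's test, among 18188 tested genes in all.

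The libraries came from ureters of wildtype NMRI embryos at E12.5, explanted and kept for 18 h on transwell membranes either with 15 mM LiCl, an inhibitor of the kinase GSK3 that activates WNT signalling, or with water as control. Poly-A RNA of 3 samples per group was sequenced from stranded libraries. The labels do not say whether the 3 samples of a group were separate cultures or pools, so the p-values measure the spread between these samples, which may be technical. The comparison asks how expression of the motile cilium genes differs between explants with and without this treatment.

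Total counts lay between 28473436 and 31266945 per library, and both groups overlapped in depth. The 9 marker genes of the ureteric epithelium were all tested and summed to 1022 to 1309 CPM, counts scaled to library size by TMM normalization, in the controls and 786 to 824 CPM after LiCl. The 7 mesenchyme markers summed to 3875 to 4425 CPM in the controls and 2754 to 3121 CPM after LiCl. LiCl replicates 1 and 3 held more RNA of skeletal muscle markers (25.03 and 54.6 CPM summed over 5 genes) than LiCl replicate 2 (2.69 CPM) and the controls (1.25 to 3.32 CPM). A fit without LiCl replicates 1 and 3 is given below.

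The label of the gene list was compared with markers of multiciliated cells. Of 8 such markers, the geminin-related *Mcidas* was read once in control replicate 1, 5 times in LiCl replicate 1, once in LiCl replicate 2 and in no other library, and *Gmnc* had 0 counts in every library except LiCl replicate 2, which had 2. The gene *Cdc20b*, a gene of the same locus as *Ccno* and *Mcidas*, did not exceed 2 counts, *Trp73* lay between 1 and 9 counts and *Deup1*, which acts in centriole amplification, between 4 and 12. These 5 markers were too low to be tested. *Foxj1* (34 to 85 reads) and *Ccno* (6 to 17 reads) were tested and are described below, and the marker *Tubb4b*, a tubulin used in many cell types, made up nearly all of the summed CPM of the list (138 to 140 in the controls, 166 to 184 after LiCl). Of the markers of ependyma and choroid plexus, another ciliated tissue, *Tmem212* did not exceed 1 read and *Ttr* did not exceed 3. The other 2 genes of that list, *Folr1* (44 to 59 reads) and *Sox2* (117 to 179 reads), were tested, and *Sox2* was higher after LiCl (log2 fold change 0.48, edgeR adjusted p = 0.0217). The 4 genes summed to 5.42 to 6.85 CPM in the controls and 6.85 to 8.13 CPM after LiCl. Of the multiciliated markers, 5 of 8 were thus too low to test, while *Foxj1*, *Ccno* and *Tubb4b* were measured, and the genes are described below as motile cilium genes by their known function, not as markers of a cell type in these explants.

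The kept genes were expressed at a low level per transcript length. Their median in the controls was 0.44 FPKM, the unit that scales fragments to transcript length and depth, against 4.59 FPKM for all tested genes, and 10 of the 38 reached 1 FPKM. *Gas8*, a subunit of the nexin-dynein regulatory complex, had the highest control level with 10.3 ± 0.585 FPKM (SD, n = 3, here and below). *Dnal1*, a light chain of the outer dynein arm, followed with 5.95 ± 0.39 FPKM. The microtubule-binding central apparatus gene *Spef1* (4.40 ± 0.291 FPKM), *Rfx3* (4.36 ± 0.387 FPKM) and the kinase gene *Stk36* (4.30 ± 0.447 FPKM) came next and did not differ from each other beyond their spread. After LiCl, *Gas8* was still the highest with 12.4 ± 0.48 FPKM, and *Dnal1* (7.15 ± 0.441 FPKM) and *Spef1* (7.08 ± 0.791 FPKM) lay within each other's spread. *Rfx2* moved from rank 14 of the 38 in the controls to rank 4.

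**Figure D1:**
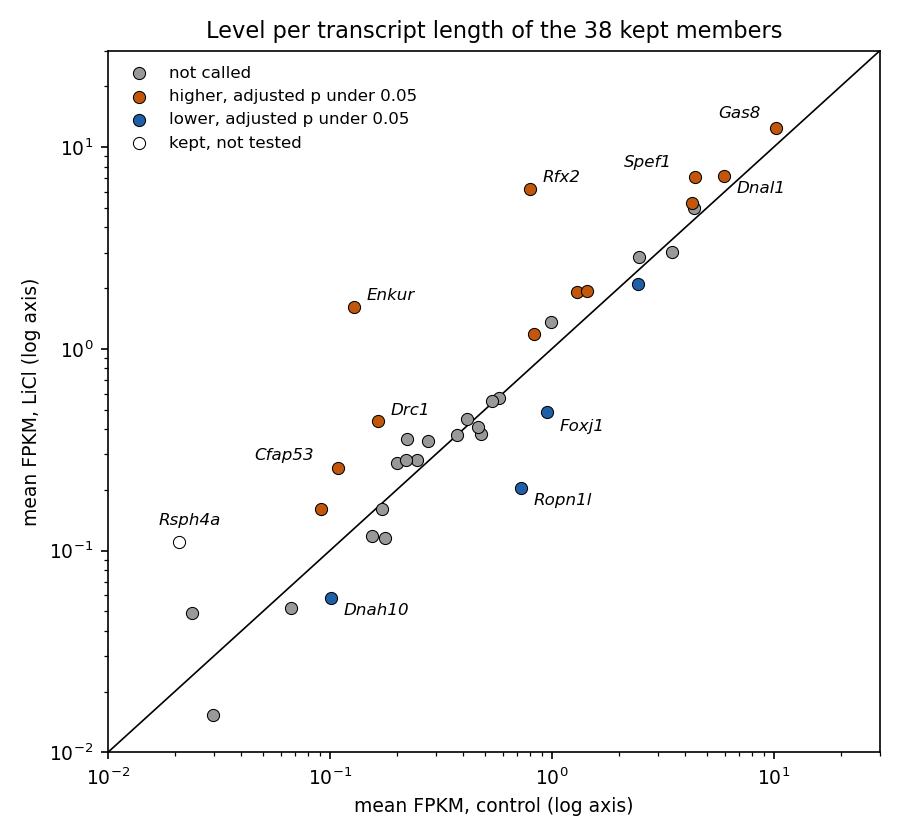
Mean FPKM of the 38 kept genes in the control libraries (x axis) against the LiCl libraries (y axis), both on log axes with n = 3 each, and the line of equal levels. *Rfx2* and *Enkur* lie farthest above the line among the tested genes, *Ropn1l* and *Foxj1* lie below it, and most genes lie close to it.

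Of the 37 tested genes, 12 were higher and 4 lower after LiCl at an adjusted p under 0.05 (edgeR's quasi-likelihood test, Benjamini-Hochberg over all tested genes), and 21 did not pass. Over all tested genes, 21.1% were called higher and 22.4% lower by this rule. With the additional condition of a log2 fold change above 1 or below -1, 4 genes were higher (*Rfx2*, *Enkur*, *Drc1* and *Cfap53*) and 1 was lower (*Ropn1l*). The shares over all tested genes were 2.74% and 4.59%. *Enkur* and *Cfap53* reached 10 reads in 1 control each and *Ropn1l* in the controls alone, so the count rule kept them through the group in which they were high. Requiring 10 reads in every library left *Rfx2* and *Drc1* higher and no gene lower with the fold condition. The median log2 fold change of the 37 genes was 0.19, and 23 of them had a value above 0. The median over all tested genes was -0.01, with 8819 of 18188 above 0. In RNA from whole explants, fewer cells that express a gene and less RNA per cell cannot be told apart.

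The summed level of the 53 genes was 286 to 294 CPM in the controls and 370 to 377 CPM after LiCl. *Rfx2* contributed 1.84 to 2.24% of the sum in the controls and 11.5 to 13.0% after LiCl. Without *Rfx2*, the sums were 280 to 288 CPM and 327 to 328 CPM. These sums are carried by the few genes with many reads, and they are given as a description without a test.

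**Figure D2:**
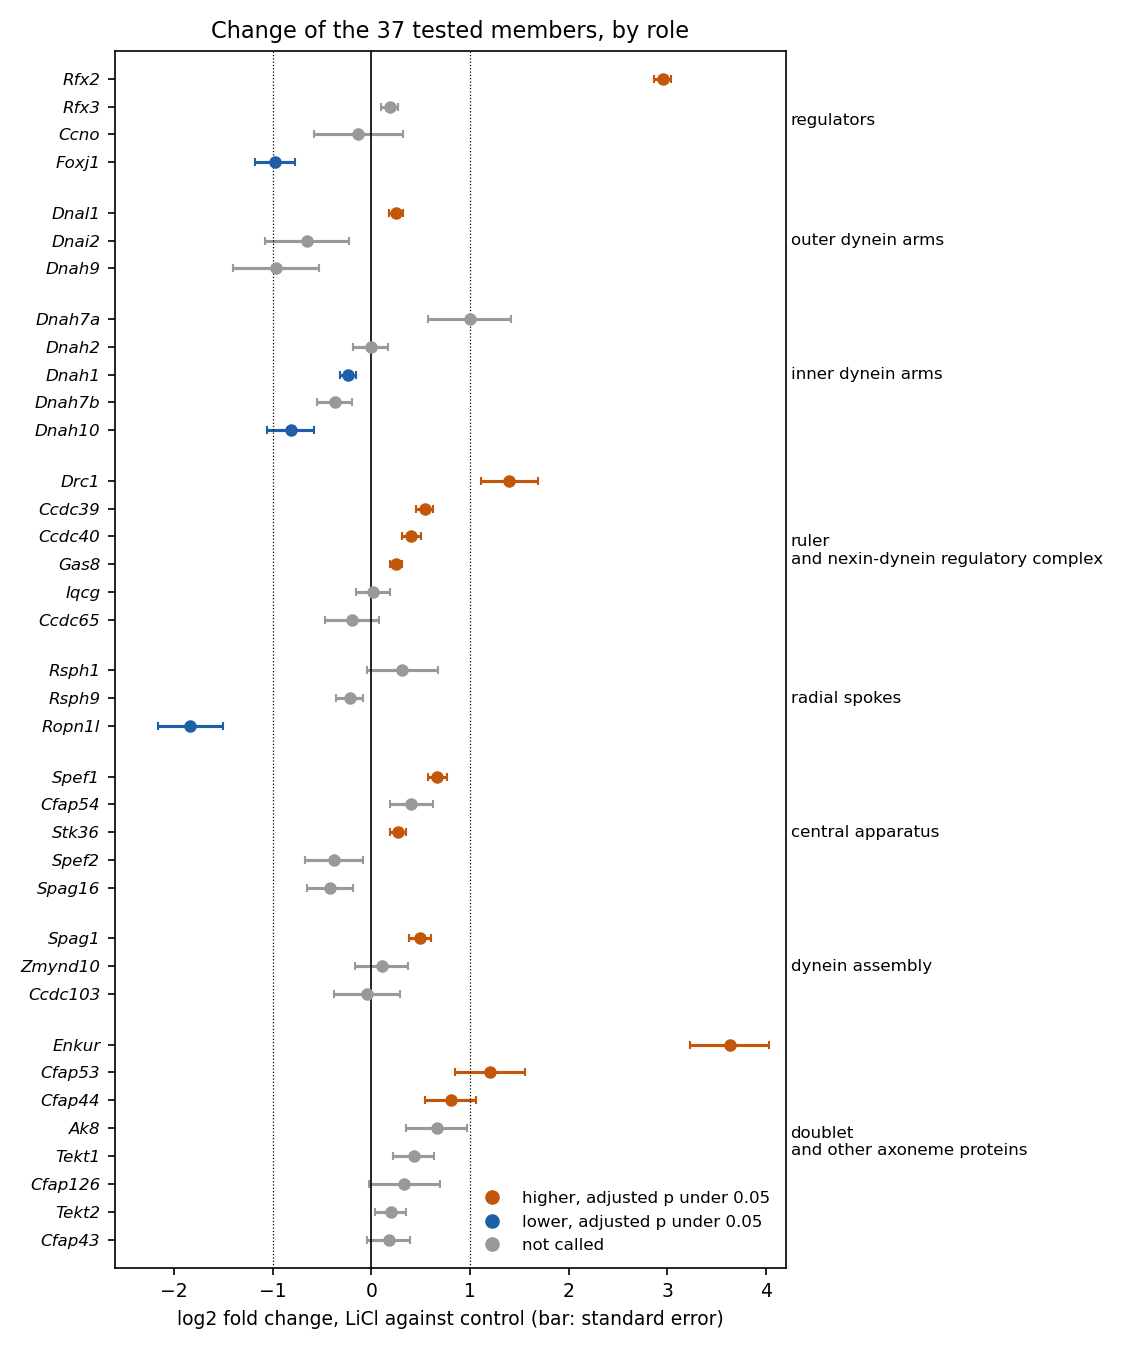
Log2 fold change between LiCl and control of the 37 tested genes with its standard error (x axis), ordered by role and then by value, with dotted lines at -1 and 1. Genes of the doublet group and most genes of the ruler and nexin-dynein regulatory complex lie above 0, whereas the dynein arm genes lie on both sides.

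The 6 regulators did not move together. *Rfx2* (ENSMUSG00000024206), a winged-helix factor that binds the X-box, had 5.39, 5.73 and 6.49 CPM in control replicates 1 to 3 and 49.0, 42.5 and 45.1 CPM in LiCl replicates 1 to 3. Every LiCl library lay far above every control. The mean rose from 5.87 ± 0.565 to 45.5 ± 3.30 CPM, a log2 fold change of 2.95 ± 0.09 (SE) with an adjusted p of 2.06e-07 by edgeR. By p, it stood at rank 6 of all 18188 tested genes, and by log2 fold change at rank 28.

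*Foxj1* (ENSMUSG00000034227) changed in the opposite direction. It had 2.19, 2.74 and 2.61 CPM in the controls and 1.13, 1.22 and 1.49 CPM after LiCl, from 34 to 85 reads per library. The groups did not overlap, and the log2 fold change was -0.98 ± 0.20 (SE, edgeR adjusted p = 0.00384), just short of the fold threshold. Without control replicate 1 or without LiCl replicate 3, *Foxj1* passed the fold threshold too, so that 2 genes were called lower in place of 1. In the libraries in which *Foxj1* was lower, the summed epithelial and mesenchyme markers were lower as well. Of the epithelial markers 7 of 9 were called lower and of the mesenchyme markers 4 of 7, beside 22.4% of all tested genes. The part of these markers in this result was not tested.

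*Rfx3*, a relative of *Rfx2* with a role in cilium assembly, had 53.9, 45.3 and 46.6 CPM in the controls and 49.7, 59.8 and 56.3 CPM after LiCl. The groups overlapped, and its log2 fold change of 0.18 ± 0.09 (SE) did not pass (edgeR adjusted p = 0.111). It passed without control replicate 1 (adjusted p = 0.0342 by edgeR), without LiCl replicate 1 (0.0349) or with no filter on counts (0.0203). *Ccno* had 16, 9 and 15 reads in the controls and 6, 17 and 12 after LiCl, with full overlap and a log2 fold change of -0.13 ± 0.45 (SE, edgeR adjusted p = 0.836). *Mcidas* and *Gmnc* stayed below the count rule, with the counts given above.

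*Enkur* (ENSMUSG00000026679), which encodes a protein inside the doublet microtubules, had the largest log2 fold change of the 37 genes. It had 11, 4 and 3 reads in the controls and 89, 55 and 77 after LiCl, which correspond to 0.383, 0.129 and 0.0979 CPM and to 2.86, 1.97 and 2.73 CPM. The lowest LiCl library was thus well above the highest control. The log2 fold change was 3.63 ± 0.40 (SE, edgeR adjusted p = 1.21e-04), at rank 11 of all tested genes by size. With a mean of 6 reads in the controls, the fold is imprecise, and it ranged from 3.31 to 4.43 on the log2 scale when single libraries were left out.

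*Drc1* (ENSMUSG00000073102), a scaffold subunit of the nexin-dynein regulatory complex, had 17, 11 and 12 reads in the controls and 42, 30 and 31 after LiCl. The groups did not overlap, and the mean rose from 0.446 ± 0.127 to 1.18 ± 0.153 CPM, a log2 fold change of 1.40 ± 0.29 (SE, edgeR adjusted p = 0.00394). *Cfap53* (ENSMUSG00000035394), which encodes an axonemal protein required for left-right asymmetry, had 7, 13 and 6 reads in the controls and 19, 18 and 21 after LiCl. Its groups did not overlap either, with a log2 fold change of 1.20 ± 0.35 (SE, edgeR adjusted p = 0.0216). The call of *Cfap53* was lost without control replicate 1 (adjusted p = 0.0681 by edgeR), control replicate 3 (0.0830) or LiCl replicate 3 (0.0754). DESeq2 did not call it either (adjusted p = 0.0871).

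The only gene called lower beyond the fold threshold was *Ropn1l* (ENSMUSG00000022236), which encodes a radial spoke protein. It had 17, 25 and 22 reads in the controls and 6, 5 and 6 after LiCl. The highest LiCl library lay below the lowest control, and the mean fell from 0.705 ± 0.108 to 0.195 ± 0.017 CPM, a log2 fold change of -1.83 ± 0.33 (SE, edgeR adjusted p = 0.0018). *Ropn1l* reached 10 reads in the control libraries alone, so the count rule kept it through the group in which it was high.

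With LiCl replicate 2 alone against the 3 controls, an alternative without the libraries that held skeletal muscle RNA, *Rfx2* and *Enkur* were still called higher beyond the fold threshold and *Foxj1* lower. *Ccdc39*, *Spef1* and *Dnah1* were still called at adjusted p alone. The other 10 called genes were not called with this single library, for which the spread had to come from the controls. Their adjusted p-values by edgeR were 0.0926 for *Drc1*, 0.211 for *Cfap53*, 0.0579 for *Ropn1l*, 0.0713 for *Ccdc40*, 0.133 for *Spag1*, 0.0528 for *Gas8*, 0.225 for *Dnal1*, 0.241 for *Stk36*, 0.421 for *Cfap44* and 0.14 for *Dnah10*. Their log2 fold changes kept their sign.

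**Figure D3:**
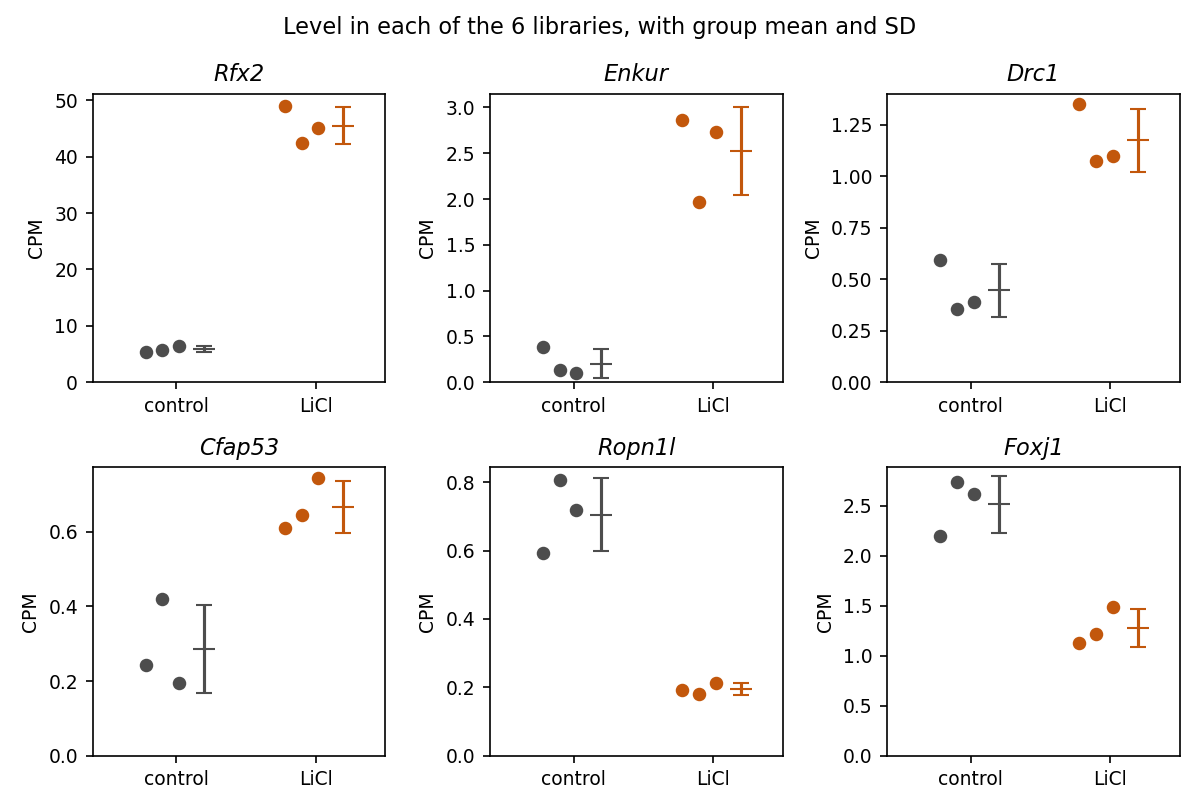
CPM in each control and LiCl library for 6 genes (points, each panel with its own y axis from 0), with the mean and SD of each group of 3 libraries. *Rfx2*, *Enkur*, *Drc1* and *Cfap53* are higher and *Ropn1l* and *Foxj1* lower after LiCl. The 6 genes were picked from those called, so the panels are no further support for the calls.

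Promoter sequences of the genes with the largest changes were examined for the RFX elements, since the list holds both an RFX factor that rose and genes that carry its element. The sequences are the 250 bases before the transcript start in RefSeq (GRCm38.p6), in the direction of transcription, for 4 of the 5 genes called with the fold condition, and for *Cfap44*, the other called gene with an X-box. For *Cfap53* and *Foxj1*, no sequence is shown. Capitals mark matches to the X-box or to the RFX core motif GTTGCC on either strand, which can lie inside an X-box. The regions are *Enkur* chr2:21205366-21205615 (minus strand), *Ropn1l* chr15:31453690-31453939 (minus strand), *Cfap44* chr16:44394549-44394798 (plus strand), *Rfx2* chr17:56831009-56831258 (minus strand) and *Drc1* chr5:30281143-30281392 (plus strand).
Enkur: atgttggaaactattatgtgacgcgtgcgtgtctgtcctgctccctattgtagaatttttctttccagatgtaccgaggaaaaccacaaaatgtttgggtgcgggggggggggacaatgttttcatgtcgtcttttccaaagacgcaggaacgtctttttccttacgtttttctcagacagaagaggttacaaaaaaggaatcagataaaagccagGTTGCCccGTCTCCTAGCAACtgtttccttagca
Ropn1l: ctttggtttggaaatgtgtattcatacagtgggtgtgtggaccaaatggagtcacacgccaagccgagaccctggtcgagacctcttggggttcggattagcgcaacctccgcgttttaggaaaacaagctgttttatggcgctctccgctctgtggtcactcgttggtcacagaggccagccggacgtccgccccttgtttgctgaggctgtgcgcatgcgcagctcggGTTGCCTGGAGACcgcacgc
Cfap44: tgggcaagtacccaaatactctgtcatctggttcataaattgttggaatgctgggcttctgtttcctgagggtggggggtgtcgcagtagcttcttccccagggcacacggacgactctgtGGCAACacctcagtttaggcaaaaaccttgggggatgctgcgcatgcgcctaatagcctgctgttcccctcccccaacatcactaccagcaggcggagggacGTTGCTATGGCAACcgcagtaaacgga
Rfx2: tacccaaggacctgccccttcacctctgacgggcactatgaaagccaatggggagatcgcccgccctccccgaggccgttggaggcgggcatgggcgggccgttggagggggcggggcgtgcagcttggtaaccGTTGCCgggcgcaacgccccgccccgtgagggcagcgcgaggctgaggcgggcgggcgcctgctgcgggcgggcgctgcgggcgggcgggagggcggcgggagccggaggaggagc
Drc1: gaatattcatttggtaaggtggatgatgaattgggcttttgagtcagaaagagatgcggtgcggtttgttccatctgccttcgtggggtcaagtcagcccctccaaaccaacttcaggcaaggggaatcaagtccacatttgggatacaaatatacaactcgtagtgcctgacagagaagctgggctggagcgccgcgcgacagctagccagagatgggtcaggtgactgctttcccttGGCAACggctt
In these windows, the X-box began 26 bases before the start in *Enkur* (GTCTCCTAGCAAC), 20 bases before it in *Ropn1l* (GTTGCCTGGAGAC) and 27 bases before it in *Cfap44* (GTTGCTATGGCAAC). *Rfx2* and *Drc1* had a core motif and no X-box.

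The same search was run over the promoter windows of 27025 genes, on both strands. The X-box was taken as a pair of degenerate core motifs with 0 to 3 bases between them. The first motif of the pair had to end in CC, read from either strand, so gttgcttagcaac in *Dnah7a* and *Dnah7b* did not match. Of the 47 listed genes with a window in the table, 15 (31.9%) held an X-box, against 3.68% of all genes, and in 10 of the 15 it began within 40 bases of the start. The RFX core motif was present in 19 of the 47 (40.4%) and in 11.8% of all genes. The forkhead core GTAAACA was found in 2 of the 47 (4.26%, against 3.54% of all) and the TCF/LEF core CTTTGAT in 3 (6.38%, against 3.72%). A match is a string of letters and not a shown binding site.

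Among the 10 tested genes with one, 2 were higher (*Enkur* and *Cfap44*), 1 was lower (*Ropn1l*) and 7 were not called, with a median log2 fold change of -0.16. Among the 22 tested genes with a window and no X-box, 8 were higher, 2 lower and 12 not called, with a median of 0.22. For reference, over all tested genes, 21.1% were higher and 22.4% lower. *Ropn1l* was kept through the controls alone, *Enkur* had 10 or more reads in 1 control only, and the difference between both sets was not tested.

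The axonemal ruler and the nexin-dynein regulatory complex set the spacing of the arms and link neighbouring doublets. All 6 listed genes of this group were tested, 4 rose and none fell, where 21.1% rose and 22.4% fell over all tested genes. The calls of *Drc1*, *Ccdc40* and *Gas8* were lost with LiCl replicate 2 alone, as given above. Beside *Drc1*, the ruler genes *Ccdc39* and *Ccdc40* rose: *Ccdc39* from 9.24 to 10.3 CPM in the controls to 13.7 to 14.6 CPM after LiCl (log2 fold change 0.54 ± 0.09 SE, edgeR adjusted p = 9.25e-04), and *Ccdc40* from 8.13 to 9.24 CPM to 10.8 to 12.4 CPM (log2 fold change 0.41 ± 0.10 SE, adjusted p = 0.00909). *Gas8* had 39.4, 43.5 and 42.2 CPM in the controls and 47.4, 50.8 and 50.7 CPM after LiCl. Its rise was small, with a log2 fold change of 0.25 ± 0.06 (SE, edgeR adjusted p = 0.00711), but the groups did not overlap. *Iqcg* (0.02) and *Ccdc65* (-0.20) did not pass. The exons of *Ccdc39* overlap those of *Ttc14* on the opposite strand by 1256 bases in GRCm38, and although the libraries were stranded, the strand setting of the counting is not stated, so it is not known whether reads of both genes were kept apart. *Ttc14* itself had a log2 fold change of -0.03 (edgeR adjusted p = 0.722). The same limit holds for *Iqcg*, whose exons overlap those of *Lrch3* on the opposite strand by 2965 bases. *Lrch3* had a mean of 65.6 CPM in the controls and 67.5 CPM after LiCl, with a log2 fold change of 0.04. The share of *Iqcg* reads from this overlap was not tested.

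The 8 tested genes for doublet microtubule and other axoneme proteins all had log2 fold changes above 0, from 0.18 to 3.63 with a median of 0.54. Over all tested genes, 8819 of 18188 were above 0. *Cfap52*, *Tekt4* and *Ak7* of this group were too low to test. Their mean CPM went from 0.341 to 0.228, 0.0348 to 0.0107 and 0.211 to 0.242 after LiCl. *Enkur* and *Cfap53* reached 10 reads in 1 control each. Of the 8, 3 rose, beside 21.1% over all tested genes. Beside *Enkur* and *Cfap53*, the genes that rose included *Cfap44*, which encodes a tether of an inner dynein arm. It had 22, 25 and 23 reads in the controls and 39, 30 and 49 after LiCl, without overlap, and a log2 fold change of 0.80 ± 0.26 (SE, edgeR adjusted p = 0.0311). This call depended on single libraries: it was lost without any 1 of control replicates 1, 2 and 3 and LiCl replicates 1 and 3, with adjusted p-values of 0.0732, 0.0618, 0.0865, 0.0522 and 0.128 by edgeR. It was also lost with DESeq2 (adjusted p = 0.0857). *Ak8* (0.66), *Tekt1* (0.43), *Cfap126* (0.34), *Tekt2* (0.19) and *Cfap43* (0.18) did not pass. Without LiCl replicate 1 the value of *Cfap43* was -0.0001, and with LiCl replicate 2 alone *Tekt2* was at -0.08 and *Cfap126* at -0.0033, so that the common sign did not hold in these fits.

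In the central apparatus, which controls the beat, 2 of 5 tested genes rose, beside 21.1% over all tested genes. *Spef1* had 12.3, 12.9 and 11.4 CPM in the controls and 21.7, 19.3 and 17.3 CPM after LiCl, with a log2 fold change of 0.67 ± 0.10 (SE, edgeR adjusted p = 6.40e-04) and no overlap. Its exons overlap those of *Cdc25b* on the opposite strand by 92 bases in GRCm38, and *Cdc25b*, a phosphatase of the cell cycle, rose from a mean of 60 to 120 CPM in the same libraries. The share of *Spef1* reads from this overlap was not tested. *Stk36* rose from 25 to 30.9 CPM in the controls to 32.3 to 35.4 CPM after LiCl (log2 fold change 0.27 ± 0.08 SE, edgeR adjusted p = 0.0226). The call of *Stk36* was lost without control replicate 1 (adjusted p = 0.0521 by edgeR), control replicate 2 (0.0587), LiCl replicate 1 (0.0652) or LiCl replicate 3 (0.0549). *Cfap54* (0.41), *Spef2* (-0.38) and *Spag16* (-0.42) did not pass, although *Cfap54* was called higher without control replicate 3 (adjusted p = 0.0227 by edgeR).

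The dynein arms, which generate the force, showed no common direction. Of 3 tested genes of the outer arm, *Dnal1* rose, with 45.1, 40.7 and 39.4 CPM in the controls and 52.9, 46.9 and 48.8 CPM after LiCl. The groups did not overlap and the log2 fold change was 0.25 ± 0.07 (SE, edgeR adjusted p = 0.0164). This call was lost without control replicate 3 (adjusted p = 0.0588 by edgeR) or LiCl replicate 1 (0.0526). The heavy chain gene *Dnah9* had 19, 11 and 13 reads in the controls and 4, 8 and 9 after LiCl and was kept through the controls alone. Its log2 fold change of -0.97 ± 0.43 (SE) did not pass (edgeR adjusted p = 0.101), nor did that of the intermediate chain gene *Dnai2* (-0.65).

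Of 5 tested heavy chain genes of the inner arms, 2 fell and none rose, beside 22.4% lower and 21.1% higher over all tested genes. *Dnah10* had 47, 57 and 45 reads in the controls and 23, 26 and 32 after LiCl, without overlap (log2 fold change -0.82 ± 0.24 SE, edgeR adjusted p = 0.0201). *Dnah1* had 31.6 to 33.0 CPM in the controls and 25.4 to 30.96 CPM after LiCl, a small difference (log2 fold change -0.24 ± 0.08 SE, edgeR adjusted p = 0.0401). Both calls were sensitive to single libraries and were lost with DESeq2 (adjusted p = 0.0629 for *Dnah10* and 0.07 for *Dnah1*). The call of *Dnah10* was lost without control replicate 2 (adjusted p = 0.0653 by edgeR), LiCl replicate 1 (0.0731) or LiCl replicate 2 (0.0511). That of *Dnah1* was lost without control replicates 1, 2 or 3 (adjusted p = 0.0777, 0.103 and 0.0809 by edgeR) and without LiCl replicates 2 or 3 (0.123 and 0.154). *Dnah7a* (1.00) and *Dnah7b* (-0.37) are near-identical copies whose reads the counting may have split, and neither passed. *Dnah7a* was called higher without control replicate 3 (adjusted p = 0.0341 by edgeR), and *Dnah7b* lower without LiCl replicate 2 (0.0266).

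Among 3 genes for the assembly of dyneins in the cytoplasm, *Spag1* rose from 8.24 to 10.2 CPM in the controls to 12.03 to 14.6 CPM after LiCl (log2 fold change 0.49 ± 0.11 SE, edgeR adjusted p = 0.00683). *Zmynd10* (0.10) and *Ccdc103* (-0.04) did not pass. In the radial spokes, *Ropn1l* fell, and *Rsph1* (0.32) and *Rsph9* (-0.22) did not pass.

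At the edge of the count rule, *Rsph4a*, which encodes a spoke head protein, had 2, 3 and 2 reads in the controls and 10, 12 and 13 after LiCl. It was kept through the LiCl libraries alone and did not pass edgeR's filter, so it entered no count of calls of the main fit. Some alternative settings tested it, and where they called it higher, it is part of their counts given below. *Enkur*, *Cfap53*, *Dnah7a*, *Dnah9* and *Ropn1l* had under 10 reads in at least 2 libraries of 1 group. Just outside the rule, *Spag17*, a central apparatus gene, had 0, 1 and 0 reads in the controls and 13, 10 and 9 after LiCl, and *Cfap52* had 8, 11 and 12 reads in the controls and 8, 4 and 8 after LiCl. *Pifo*, which is known from the disassembly of primary cilia, had 0, 1 and 0 reads in the controls and 9, 3 and 13 after LiCl. Exons of *Spag17* overlap those of *Wdr3* on the opposite strand by 820 bases in GRCm38, and *Wdr3* had 52.3 CPM in the controls and 63.7 CPM after LiCl. The other genes not kept (*Ak7*, *Cfap206*, *Dnah5*, *Dnah6*, *Dnah11*, *Dnai1*, *Dnali1*, *Dynlrb2*, *Hydin* and *Tekt4*) did not exceed 10 reads in any library. Among them, *Dnah6* had 9, 6 and 10 reads in the controls and 1, 3 and 5 after LiCl. *Dnah5* had 2, 2 and 0 reads in the controls and 4, 4 and 7 after LiCl. Differences of the genes not kept were not tested, because at this depth a gene is counted by a handful of reads.

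**Figure D4:**
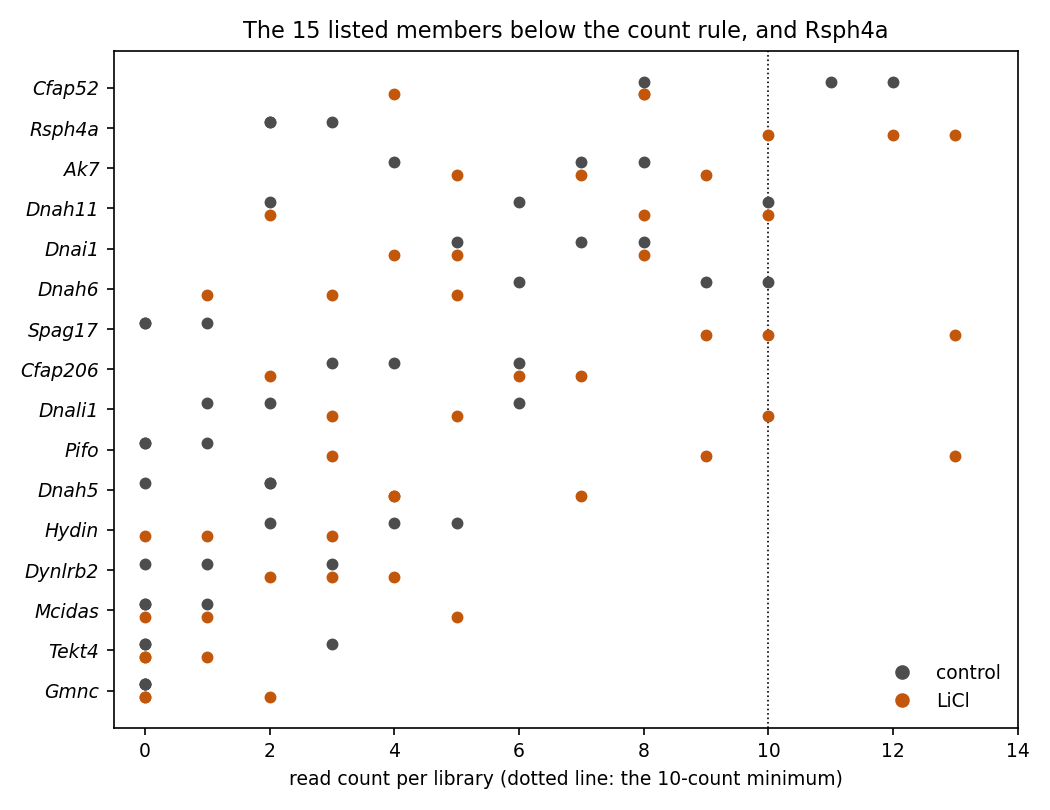
Read counts per library of the 15 listed genes below the count rule and of *Rsph4a* (x axis), with control and LiCl libraries as separate points, where equal values cover each other. *Spag17*, *Pifo* and *Rsph4a* have 0 to 3 reads in the controls and 3 to 13 after LiCl. *Dnah6* has 6 to 10 reads in the controls and 1 to 5 after LiCl, and *Dnah5* has 0 to 2 and 4 to 7. The other genes overlap between groups.

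Related genes outside the list were taken from 4 lists. Of 50 tested among 81 other motile cilium genes, 10 were higher and 4 lower, and their median log2 fold change was 0.23. The number higher is close to the share of 21.1% over all tested genes, while 22.4% of all were lower. *Tppp3*, which encodes a tubulin-binding protein found in motile cilia, had 9.53, 9.24 and 8.52 CPM in the controls and 90.6, 74.7 and 87.7 CPM after LiCl. Its log2 fold change was 3.21 (edgeR adjusted p = 2.06e-07), close to that of *Rfx2*. The kinesin gene *Kif9* (1.15, edgeR adjusted p = 5.01e-04) and *Mns1*, which encodes a protein inside the doublets (1.10, adjusted p = 1.69e-05), were the other 2 genes of this list beyond the fold threshold. *Ttc12* (-0.55) and *Spag8* (-0.53) were among those called lower.

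Of 13 tested among 20 further regulators of ciliogenesis, 6 were higher and 1 lower, beside 21.1% and 22.4% over all tested genes. *Myb*, a factor that acts in multiciliated as well as in dividing cells, rose from 2.67 to 3.36 CPM to 6.10 to 7.76 CPM (log2 fold change 1.12, edgeR adjusted p = 4.16e-04). *Gmnn* (0.73), which encodes the replication inhibitor geminin, and *Tfdp1* (0.42), which encodes a partner of E2F factors, followed, and *Foxj2* was lower (-0.33). Of the other RFX genes tested, *Rfx1* rose from 49.6 to 52.8 CPM to 61.0 to 65.3 CPM (log2 fold change 0.31, edgeR adjusted p = 0.00119), whereas *Rfx5* (-0.06) and *Rfx7* (-0.05) did not pass. *Rfx4*, with 1 to 3 reads in the controls and 8 to 10 after LiCl, was too low to be tested.

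Of the genes for parts that motile and immotile primary cilia share, none passed the fold threshold, which 2.74% of all tested genes passed upward and 4.59% downward. At adjusted p alone the shares over all tested genes were 21.1% and 22.4%. For intraflagellar transport and the BBSome, which carry cargo along the cilium, 6 of 42 tested genes were higher and 10 lower, with a median log2 fold change of 0.00. *Ift80* (0.84), *Bbs1* (0.61) and *Ift172* (0.49) were highest, and *Bbs2* (-0.75), *Ift25* (-0.66) and *Kifap3* (-0.36) lowest. For the transition zone and the basal body, 11 of 37 were higher and 5 lower, with a median of 0.13, from *Cep89* (0.68), *Arl13b* (0.43) and *Cep290* (0.36) to *Mks1* (-0.44), *Tmem231* (-0.36) and *Ahi1* (-0.31). All named genes of these lists passed edgeR's test at an adjusted p under 0.05.

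**Figure D5:**
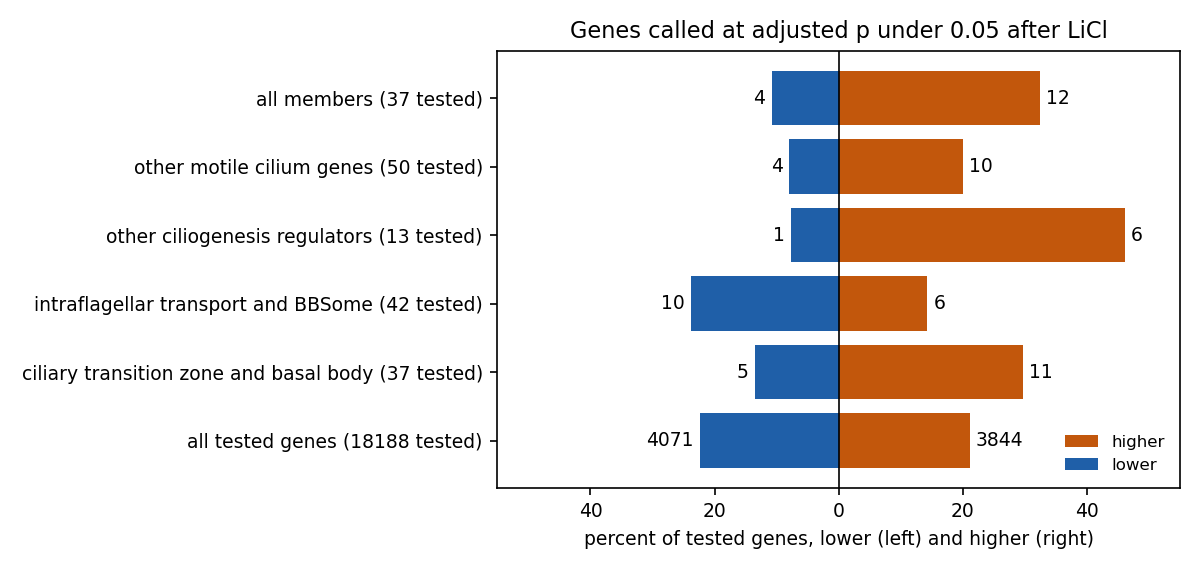
Percent of the tested genes of each list that were called higher (right) or lower (left) after LiCl at an adjusted p under 0.05, with the number of genes at each bar and all tested genes as reference. The 37 motile cilium genes have 12 higher and 4 lower, against 21.1% higher and 22.4% lower over all 18188 genes.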

How the data were processed

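RNA-Seq counts of 3 control and 3 LiCl samples were analysed, grouped by their labels. The authors deposited raw counts per Ensembl gene and FPKM values. The study's methods name HISAT2 and featureCounts on GRCm39, whereas the submitters' processing notes list fastp 0.23, STAR 2.7, featureCounts 2.0 and DESeq2 1.40. The aligner therefore remains unclear, and the annotation release and the strand setting are not given in the sources used here. Symbols came from GENCODE vM21 (GRCm38), which named 52073 of the 56748 identifiers. *Dnai1* and *Dnai2* were matched by older symbols. Exon overlaps came from the same annotation.

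All genes were fitted together with R 4.3.3 and edgeR 4.0.16 by its quasi-likelihood test with TMM factors. After filterByExpr, 18188 genes were left, whose p-values were adjusted by Benjamini-Hochberg. The standard error is the absolute log2 fold change over the root of F. CPM used TMM-scaled library sizes. FPKM were used for levels between genes and, with limma 3.58.1, in alternatives. Genes were called at the study's thresholds, an adjusted p under 0.05 with an absolute log2 fold change over 1, and also at the adjusted p alone, which is not a threshold of the study. The gene members, the related lists and the tests were chosen with earlier results of these data known, as was the search for X-boxes. Named genes are the 6 regulators, the genes called with the fold condition, the 3 with the highest control FPKM, those at the count limit and up to 3 per direction in related lists. Further genes are named with their values, and these were chosen after their values were seen. Libraries of a group differed by more than counting noise (chi-square per degree of freedom 5.93 to 14.5). Total counts of 28473436 or more leave genes with under about 20 reads imprecise, and no molecular identifiers are named, so reads may include PCR copies. With 3 against 3 samples, an exact permutation test of 1 gene cannot give a p below 0.1. The scripts were tested on simulated counts. Alternatives were other normalizations, filters, DESeq2 1.42.0, limma, a replicate block and single libraries left out.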

Additional observations from a re-analysis of the deposited data

How the results depend on the processing

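Some calls rest on few reads, among them those of *Enkur*, *Drc1*, *Cfap53* and *Ropn1l*. The main counts were 4 higher and 1 lower with the fold condition, and 12 higher and 4 lower at adjusted p alone. The median log2 fold change was 0.19. Over the 16 alternative settings, the single-gene results kept their side of the threshold in 494 cases. They lost the call in 41 and gained it in 8, and none that was called changed sign. Genes that were not called could change sign, as *Ccdc103* did, with log2 fold changes from -0.30 to 0.32. *Rfx2*, *Enkur*, *Foxj1*, *Ccdc39* and *Spef1* kept their call at adjusted p in every setting in which they were tested.

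With library size only, *Foxj1* joined *Ropn1l*, giving 2 lower with the fold condition. DESeq2 gave 2 lower at adjusted p and a median of 0.24, and its 4 genes higher with the fold condition held *Rsph4a* in place of *Cfap53*. Without a filter, the median was 0.25 and *Rsph4a* was added to the genes called higher. At adjusted p alone, *Rfx3* was added too. Requiring 10 counts in every sample gave 2 higher and 0 lower with the fold condition, as did a rule of 10 counts in all 6 columns, because fewer genes were tested. A rule of 20 counts in 3 columns gave 0 lower. limma on log2(FPKM + 1) gave 2 higher and 0 lower with the fold condition, 1 lower at adjusted p and a median of 0.24. With a pseudocount of 0.1, these were 2, 0 and 1 with a median of 0.27. These limma fits held 17 of the genes. LiCl replicate 2 alone against the controls, an alternative chosen after seeing the data, gave 2 higher with the fold condition, and 4 higher and 2 lower at adjusted p. Leaving out single libraries gave 3 to 5 higher and 1 to 2 lower with the fold condition, 9 to 12 higher and 2 to 3 lower at adjusted p, and a median of 0.19 to 0.24. These counts include *Rsph4a*, kept through the LiCl libraries alone, in the fits without control replicate 1, 2 or 3 or LiCl replicate 1. Where fewer genes or samples do not show it, the cause was not tested. Without control replicate 2, 2 genes were lower at adjusted p.

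The replicate number as a block gave 4 higher and 1 lower with the fold condition, 11 higher and 3 lower at adjusted p, and a median of 0.18. The numbers were not a pairing in the labels, and the deviations of same-numbered samples correlated at 0.0313, -0.0899 and 0.1.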
